A study of Mus musculus with 20 samples.

Results

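S100 proteins and annexins are calcium-binding proteins that are abundant in myeloid cells. Most S100 proteins form dimers and change shape on binding calcium, and annexins bind acidic phospholipids of membranes in the presence of calcium. The families meet in complexes such as that of annexin A2 with S100a10, which sits under the plasma membrane and binds plasminogen, and S100a11 is a partner of annexin A1. S100a8 and S100a9 form calprotectin, a main cytosolic protein of neutrophils and of some monocytes. The genes described here are S100a4, S100a6, S100a8, S100a9, S100a10, S100a11, Anxa1, Anxa2, Anxa3 and Anxa5, chosen by symbol, with every probe set that the array's annotation gives to that symbol alone. This gave 14 probe sets for 9 of the 10 genes, out of 34945 probe sets with 1 symbol for 18193 genes. The probe set of S100a11 is annotated to 3 genes, S100a11, a pseudogene of it and a predicted gene, so no value is given for S100a11.

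The values are log2 intensities on Affymetrix mouse arrays of 45101 probe sets, hybridised with RNA from C57BL/6 bone marrow cells, with 20 arrays in 10 groups of 2. Multipotent progenitors (MPP) and common dendritic cell progenitors (CDP) were amplified in culture. Conventional dendritic cells (cDC) and plasmacytoid dendritic cells (pDC) were differentiated from such amplified progenitors, and in vivo CDP were isolated directly from bone marrow. A further series of amplified CDP had received TGF-beta1 for 0 (untreated), 4, 8, 12 or 24 h. No group carried a genetic change according to the labels. The sources used here do not give the dose of TGF-beta1, the age of the mice or the number of mice or cultures behind each array, and the p-values below thus cover only array-to-array spread, which may be technical. MPP, CDP, cDC and pDC were labelled from 1000 ng of RNA with a one-cycle kit, whereas in vivo CDP had 50 ng, another labelling kit and another extraction kit. Kit, RNA amount and origin of the cells therefore cannot be told apart in the comparison of in vivo CDP with cultured CDP.

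These 10 arrays share 1 lowest value, 2.25, and 34.0% to 35.1% of probe sets lay above 5 on each. On the 10 arrays of the TGF-beta1 series, labelled from 250 ng, there is no shared lowest value and 54.4% to 56.0% lay above 5, so levels were never compared between the 2 sets of arrays. Most marker genes went with the labels. All 9 cDC markers were called higher in cDC than in CDP. Of 7 pDC markers, 6 were called higher and 1 lower in pDC than in CDP. Above CDP were also 5 of the 7 pDC markers in cDC and 4 of the 9 cDC markers in pDC. Between cDC and pDC directly, 6 of 9 cDC markers were called higher in cDC and 6 of 7 pDC markers higher in pDC. Replicate 1 at 4, 12 and 24 h had a Gapdh signal 2.09 to 2.78 higher at the 3′ than at the 5′ probe set (log2), against 0.01 to 0.10 on the other 7 arrays of that series. On the 10 other arrays this Gapdh gap was 0.98 and 0.47 in vivo and -0.21 to 0.30 elsewhere. The same gap for beta-actin was 1.91 and 2.04 in MPP, 1.23 and 2.11 in CDP, 0.69 to 0.94 in cDC and pDC, and 1.39 and 1.09 in vivo. It thus moves with the groups compared, and its part in the differences between them was not tested. In bulk RNA, fewer cells of a type and less RNA per cell cannot be told apart. Levels below are means ± SD over n = 2 arrays, a difference is in log2 units ± the SE of limma, and a gene is called at a Benjamini-Hochberg adjusted p under 0.05 from limma over all probe sets tested. A fold is the unlogged difference. If the lower group was under 5 on both arrays, 5 took the place of its level, and the fold is a bound, written "at least", while its p tests the deposited values. Where a gene has several probe sets, the strongest one on average stands for it, and its levels are not comparable with those of another gene.

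All 6 S100 genes lie on mouse chromosome 3, as does Anxa5, while Anxa3 lies on chromosome 5, Anxa2 on 9 and Anxa1 on 19. S100a8 and S100a9 are neighbours on opposite strands with 0 protein-coding genes between them, S100a11 neighbours S100a10, and S100a5 lies between S100a4 and S100a6. RefSeq promoter windows of build GRCm38.p6 were at hand for 8 of the 10 genes. The stretches shown end at the annotated start of each gene. They are those of the pair that moved most together, S100a8 and S100a9, and of 3 genes that were higher in cDC than in pDC, S100a4, Anxa1 and Anxa2. Capitals mark TATAAA on the gene's strand, in the pair, the letters TGNNGCAAT of a C/EBP-type site on either strand. These motifs were chosen after the sequences were seen.
S100a8, chr3:90668921-90669070, + strand: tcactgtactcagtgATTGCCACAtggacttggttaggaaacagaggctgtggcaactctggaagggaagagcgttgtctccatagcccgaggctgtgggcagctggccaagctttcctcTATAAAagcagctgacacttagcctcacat
S100a9, chr3:90695722-90695871, - strand: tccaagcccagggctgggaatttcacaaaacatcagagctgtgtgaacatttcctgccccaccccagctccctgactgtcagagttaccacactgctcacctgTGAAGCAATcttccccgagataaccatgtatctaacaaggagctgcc
S100a4, chr3:90603710-90603769, + strand: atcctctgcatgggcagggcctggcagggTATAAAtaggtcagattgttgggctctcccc
Anxa1, chr19:20390672-20390731, - strand: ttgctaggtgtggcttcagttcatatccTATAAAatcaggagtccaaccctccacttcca
Anxa2, chr9:69453623-69453682, + strand: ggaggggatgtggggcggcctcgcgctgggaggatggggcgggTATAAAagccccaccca

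In the 250 bases before the start, TATAAA was found on the gene's strand in S100a8, S100a4, Anxa1 and Anxa2, at 30, 31, 32 and 17 bases before it. It was absent from those of S100a6, S100a11 and Anxa5. In S100a9 the letters begin at base 1 after the annotated start, outside that window. Of 32851 promoter windows of the same length, 7.59% held TATAAA on the gene's strand 12.4% on either strand. TGNNGCAAT was found in S100a8, 135 bases before the start on the opposite strand, and in S100a9, 47 bases before it on the gene's strand. It was in none of the other 6 windows and in 1.79% of all. CAGACA, the letters of a SMAD box, occurred in S100a8 alone among the 8 windows, 198 bases before the start on the opposite strand, and in 17.1% of all. A match of letters is a description and not a binding site.

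S100a8 and S100a9, the subunits of calprotectin, were high in MPP, lower in cultured CDP and near the lowest value in both dendritic cell types. S100a8 read 14.43 and 13.96 in MPP and 10.04 and 7.42 in CDP. It then read 2.97 and 2.48 in cDC and 2.33 and 2.48 in pDC. MPP and CDP did not overlap, and the CDP arrays lay far apart from each other. S100a9 went from 14.49 and 13.46 (MPP) through 10.20 and 7.09 (CDP) to 2.81 and 2.29 (cDC) and to 2.28 and 2.25 (pDC). In vivo CDP stood between MPP and cultured CDP, at 12.89 and 10.85 for S100a8 and at 12.36 and 10.52 for S100a9. By mean level the order was thus MPP, in vivo CDP, CDP and then the dendritic cells. In vivo CDP, labelled with another kit, were not tested against MPP, and their calls above CDP, given below, depend on single arrays. The dendritic cell types cDC and pDC differed by 0.32 ± 0.76 for S100a8 (adjusted p = 0.827, limma) and by 0.29 ± 0.92 for S100a9 (adjusted p = 0.879), with both below 5.

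**Figure D1:**
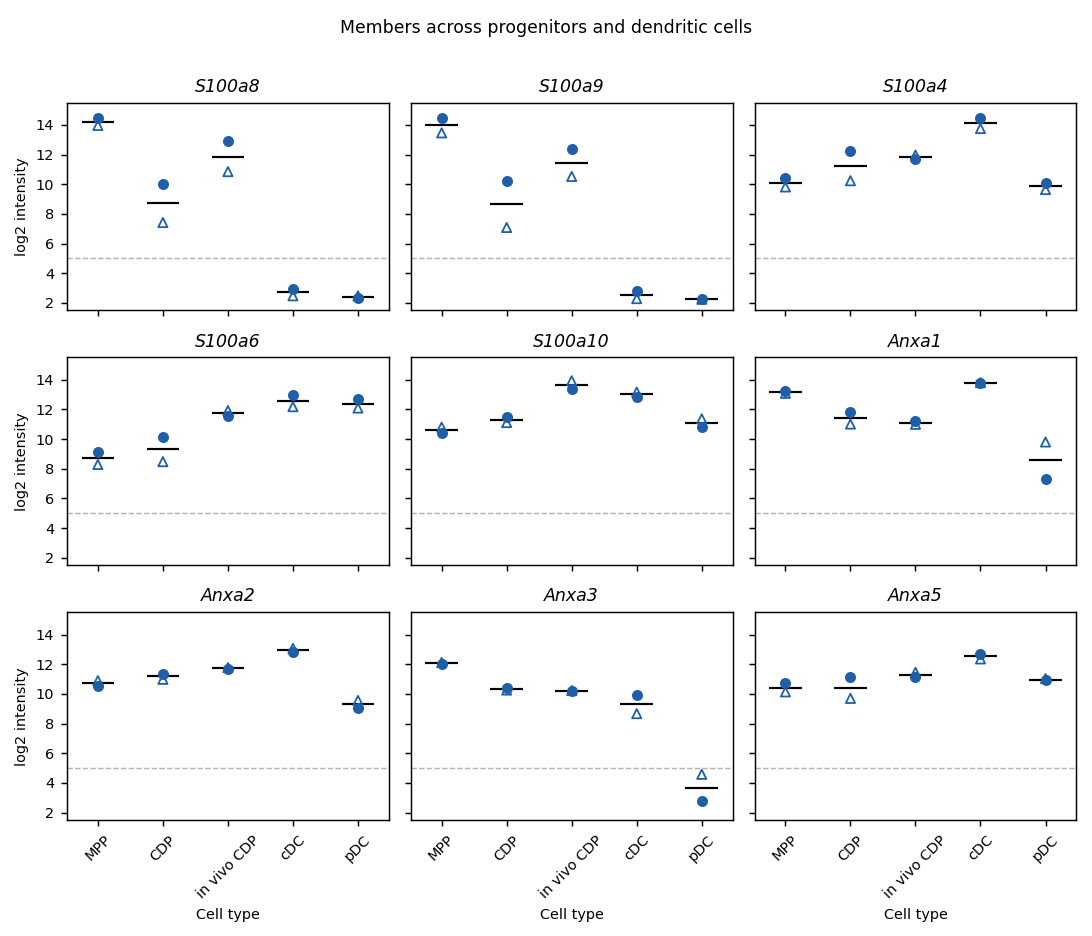
Log2 intensity (y axis) of the 9 measured genes in 5 cell types (x axis), with 1 point per array (filled circle replicate 1, open triangle replicate 2), a bar for the mean of 2 arrays and a dashed line at 5. S100a8, S100a9 and Anxa3 fall below the line in pDC, S100a8 and S100a9 also in cDC, and the other genes stay above 7 on every array; in vivo CDP were labelled with another kit.

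Between MPP and CDP, 2 of 11 tested probe sets of these genes were called, both lower in CDP, where 4.92% of all tested probe sets were called, 2.81% higher and 2.11% lower. S100a8 fell by 5.46 ± 0.76 (44.2-fold, adjusted p = 0.0107, limma) and S100a9 fell by 5.34 ± 0.92 (40.4-fold, adjusted p = 0.0243). None of the 11 was called higher, and at an unadjusted p under 0.05 there were 2 higher and 3 lower. The calls rest on both MPP arrays: without MPP replicate 1 or 2 the adjusted p of S100a8 was 0.095 or 0.0786 and that of S100a9 0.169 or 0.106. Without a filter on low values the 2 genes were not called either (adjusted p = 0.132 and 0.211). Without CDP replicate 1, the higher one, the difference of S100a9 was -6.89 (adjusted p = 0.00397), and without CDP replicate 2 it was -3.78 (adjusted p = 0.0199). The fold of S100a8 was 110-fold without CDP replicate 1 and 17.8-fold without replicate 2.

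The remaining genes were not called between MPP and CDP. Anxa3, an annexin abundant in neutrophils, read 12.03 and 12.12 in MPP and 10.43 and 10.26 in CDP, a difference of -1.73 ± 0.62 (adjusted p = 0.218, limma). Anxa1, which has anti-inflammatory actions through formyl peptide receptors, read 13.22 and 13.08 in MPP and 11.80 and 11.01 in CDP, a difference of -1.75 ± 0.73 (adjusted p = 0.292). In both, MPP and CDP did not overlap. S100a4, S100a6, S100a10, Anxa2 and Anxa5 had differences from -0.01 to 1.11, with adjusted p from 0.27 to 1.0.

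Most granulocyte markers tested moved with the calprotectin pair. Of 13 listed markers 10 were measured and 9 tested, of which 8 were called lower and 1, Mmp8, was called higher in CDP than in MPP. Mpo, the myeloperoxidase of azurophil granules, differed by -6.07 (adjusted p = 7.25e-05, limma), and Ngp, a gene of secondary granules, by -5.29 (adjusted p = 0.00885). Camp, of the same granules, was at least 10.7-fold lower (adjusted p = 0.00124). Prtn3 and Ctsg differed by only -1.13 and -1.74 (adjusted p = 0.0284 and 0.0194), with means of 13.60 and 13.28 in CDP. The mean log2 level of the 10 markers was 10.4 and 9.76 on the MPP arrays and 7.38 and 6.37 on those of CDP. It was 9.88 and 8.46 in in vivo CDP, 3.50 and 3.53 in cDC and 3.28 and 3.25 in pDC. Camp was under 5 on both CDP arrays, at 3.25 and 2.88. Mast cell and basophil markers were also lower in CDP than in MPP, with 4 of 5 tested called. The part of such cells in the levels of S100a8 and S100a9 was not tested.

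**Figure D2:**
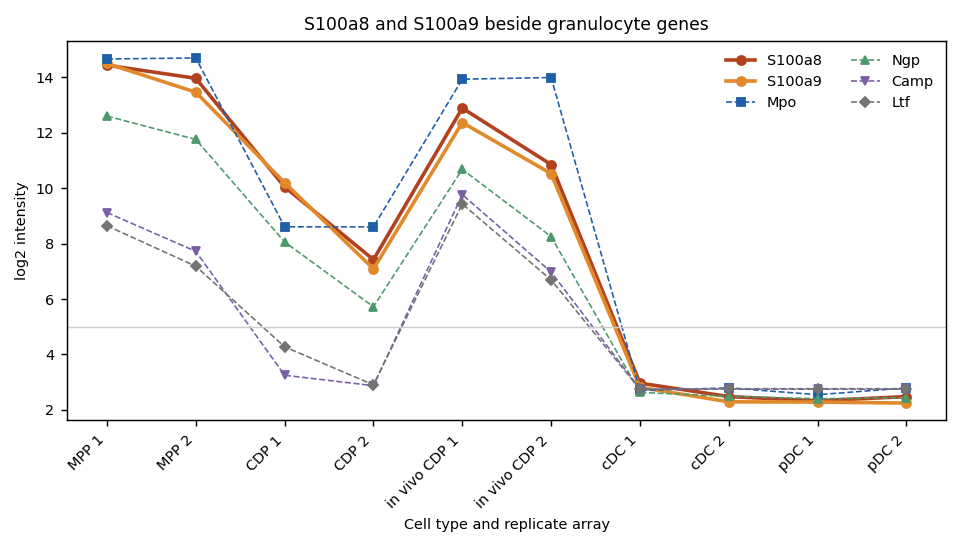
Log2 intensity (y axis) of S100a8 and S100a9 (solid lines) and of the granulocyte genes Mpo, Ngp, Camp and Ltf (dashed lines) on each of 10 arrays (x axis); lines only join points of a gene, and the grey line marks 5. All 6 genes are below 5 on the cDC and pDC arrays, and all 6 are higher on each in vivo CDP array than on CDP replicate 2. The other measured granulocyte markers, among them Prtn3, Ctsg and Mmp8, are not drawn.

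Over these 10 arrays the genes with the pattern most like that of S100a9 were S100a8, Ngp and Mpo. Likeness was measured as the root mean square difference after each gene was centred on its own mean, which was 0.21, 0.98 and 1.26 for them, among 7839 genes. By the same measure Tmem176a (0.42), Tmem176b (0.62) and Acvrl1 (0.65) were nearest to S100a4. Il6ra (0.37), Sbf1 (0.40) and Plekhg3 (0.44) were nearest to S100a10, and Fnbp1l (0.49), Rab32 (0.56) and Dock5 (0.57) to Anxa1. The points share 5 groups of 2 arrays, and these values carry no test.

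From CDP to cDC, most of the other genes rose. Of 11 tested probe sets, 8 were called higher and 2 lower, where 40.2% of all tested probe sets were called, 16.6% higher and 23.7% lower. The 8 belong to S100a4, S100a6, S100a10 (3 probe sets), Anxa1, Anxa2 and Anxa5, and the 2 to S100a8 and S100a9. The median difference of the 11 was 1.77, against -0.10 for all probe sets tested.

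S100a4, a regulator of non-muscle myosin and of cell migration, read 12.21 and 10.24 in CDP and 14.45 and 13.75 in cDC. The cDC arrays lay above both CDP arrays, and the difference was 2.88 ± 0.63 (7.36-fold, adjusted p = 0.0123, limma). S100a6, or calcyclin, read 10.17 and 8.48 in CDP and had a mean of 12.59 ± 0.57 (SD, n = 2) in cDC, with both cDC arrays above both CDP arrays. It had the largest rise of the 9 genes, 3.27 ± 0.61 (9.62-fold, adjusted p = 0.00706). S100a10, the partner of annexin A2, read 11.46 and 11.11 in CDP and 12.85 and 13.17 in cDC, a rise of 1.72 ± 0.27 (3.29-fold, adjusted p = 0.00382). Its other 2 probe sets rose by 1.80 and 1.12 and were called too.

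Of the annexins, Anxa2 read 11.37 and 10.98 in CDP and 12.82 and 13.07 in cDC, a rise of 1.77 ± 0.26 (3.40-fold, adjusted p = 0.00314, limma). Anxa5, whose protein binds exposed phosphatidylserine, read 11.12 and 9.70 in CDP and 12.69 and 12.36 in cDC, and rose by 2.12 ± 0.46 (4.34-fold, adjusted p = 0.012). Anxa1 read 13.80 on both cDC arrays, above MPP and CDP, and rose by 2.40 ± 0.73 from CDP (5.27-fold, adjusted p = 0.039). Anxa3 went the other way without being called, from 10.43 and 10.26 in CDP to 9.95 and 8.67 in cDC (difference -1.03 ± 0.62, adjusted p = 0.23). S100a8 and S100a9 were at least 13.3-fold and at least 12.5-fold lower in cDC than in CDP (adjusted p = 0.0018 and 0.00333). With CDP replicate 2 alone, the bounds were at least 5.35-fold and at least 4.25-fold, and with CDP replicate 1 alone at least 33.0-fold and at least 36.6-fold, for cDC and pDC alike.

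Some of these values depend on single arrays. Without CDP replicate 1 the rises were 14.6-fold for S100a4, 17.3-fold for S100a6 and 7.09-fold for Anxa5, and without CDP replicate 2 they were 3.72-fold, 5.36-fold and 2.65-fold. The rise of Anxa1 was not called without any 1 of the 4 arrays compared, with adjusted p from 0.0722 to 0.169. Without cDC replicate 1, S100a4 (adjusted p = 0.0632) and Anxa5 (adjusted p = 0.0593) were not called. Without a filter on low values S100a4, S100a6, Anxa1 and Anxa5 were not called (adjusted p = 0.108, 0.0751, 0.233 and 0.0987), while S100a10 and Anxa2 were. In CDP, replicate 1 read above replicate 2 for all 9 genes and by over 1 for 5 of them. Of all tested probe sets, 49% were higher in replicate 1 and 5.69% by over 1. The mean log2 level of 8 monocyte and macrophage markers was 10.5 in CDP replicate 1 and 9.42 in replicate 2, and 10.5 and 10.3 in cDC. Granulocyte (7.38 and 6.37), cDC (5.98 and 5.08) and pDC markers (5.91 and 5.20) were also higher in CDP replicate 1. Mast cell and basophil (3.47 and 3.35) and erythroid and megakaryocyte markers (3.46 and 3.45) were nearly level, and B, T and NK cell markers were at 2.25 on both. The part of such cells in the members' levels was not tested.

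**Figure D3:**
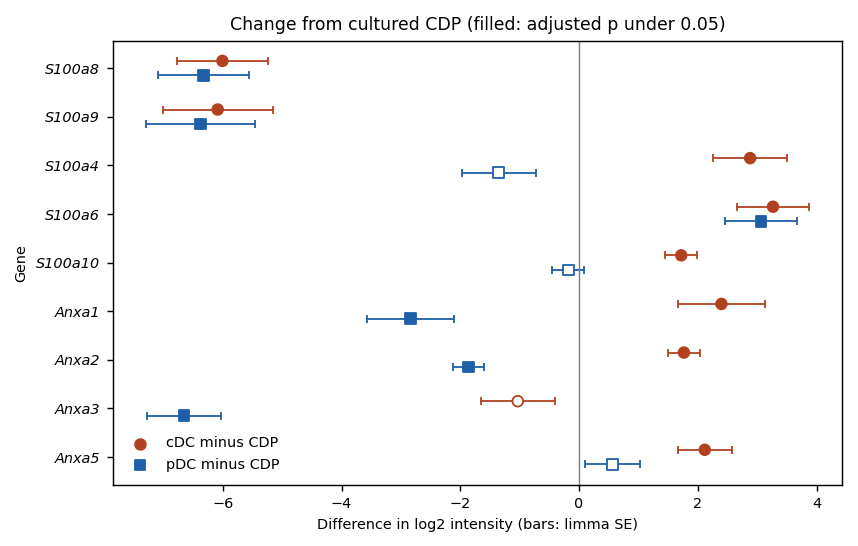
Difference in log2 intensity from cultured CDP (x axis) of the 9 measured genes (y axis) for cDC (circles) and pDC (squares), with bars of 1 SE and filled symbols where the adjusted p is under 0.05. Anxa1 and Anxa2 lie right of 0 in cDC and left of 0 in pDC, and S100a6 lies near 3 in both. S100a8 and S100a9 in both cell types and Anxa3 in pDC are under 5, so their points show no measured size or order; the comparisons share the 2 CDP arrays.

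From CDP to pDC, 1 of 11 tested probe sets was called higher and 6 lower, where 48.2% of all tested probe sets were called, 21.9% higher and 26.4% lower. The one that rose was S100a6, which read 12.69 and 12.09 in pDC and differed from CDP by 3.07 ± 0.61 (8.38-fold, adjusted p = 0.0067, limma). Without CDP replicate 1 that fold was 15.04 and without replicate 2 it was 4.67. Anxa3 read 2.79 and 4.58 in pDC, under 5 on both arrays, and was at least 40.6-fold lower than in CDP (adjusted p = 3.89e-04). Anxa1 read 7.33 and 9.80 in pDC and fell by 2.84 ± 0.73 (7.15-fold, adjusted p = 0.018). Anxa2 read 9.06 and 9.56 and fell by 1.87 ± 0.26 (3.65-fold, adjusted p = 0.00173). S100a8 and S100a9 were lower by at least 13.3-fold and at least 12.5-fold (adjusted p = 9.42e-04 and 0.00193).

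S100a4 read 10.10 and 9.64 in pDC, below both CDP arrays, and differed by -1.35 ± 0.63 without being called (adjusted p = 0.118, limma). Without CDP replicate 2 it was called lower (-2.34, adjusted p = 0.0118). Anxa5 differed by 0.56 ± 0.46 (adjusted p = 0.347) and S100a10 by -0.18 ± 0.27 (adjusted p = 0.607). A weaker probe set of S100a10, 1439348_at, was called lower (adjusted p = 0.0178), with pDC at 3.70 and 3.53 and CDP on either side of 5, at 5.14 and 4.40, so no size is given. The fall of Anxa1 was not called without CDP replicate 1 (-2.45, adjusted p = 0.0895) or without the filter on low values (adjusted p = 0.138), and the latter also ended the call of S100a6 (adjusted p = 0.0714). In Anxa1 and Anxa3, pDC replicate 2 read higher than replicate 1 by over 1. The mean log2 level of 8 monocyte and macrophage markers differed the same way, at 7.53 in pDC replicate 1 and 9.32 in replicate 2. The gap was wide in Csf1r (7.63 and 10.48), Adgre1 (4.32 and 8.86) and Lyz2 (7.13 and 11.94). It was smaller in Cx3cr1 (5.93 and 6.73), Cd14 (6.94 and 7.91), Ccr2 (13.57 and 13.81) and Fcgr1 (3.77 and 3.91). Cd68 was level (10.96 and 10.93). The part of such cells was not tested. Without pDC replicate 2 the fall of Anxa1 was 4.08 (adjusted p = 0.00186), and without replicate 1 it fell by 1.60 (adjusted p = 0.0215).

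Compared directly, cDC were called above pDC for 7 of 11 probe sets and below for none, where 20.8% of all tested probe sets were called, 9.79% higher and 11% lower. At an unadjusted p under 0.05 there were 8 higher and 0 lower. The difference was 5.24 ± 0.73 for Anxa1 (37.7-fold, adjusted p = 0.00338, limma), 4.23 ± 0.63 for S100a4 (18.8-fold, adjusted p = 0.00435) and 3.63 ± 0.26 for Anxa2 (12.4-fold, adjusted p = 2.45e-04). Without pDC replicate 1, the lower one, the fold of Anxa1 was 15.97, and without pDC replicate 2 it was 88.8. Anxa3 was at least 19.8-fold higher (adjusted p = 0.00134), or at least 12.8-fold without cDC replicate 1 and at least 30.9-fold without cDC replicate 2. S100a10 was higher by 1.90 ± 0.27 (3.74-fold, adjusted p = 0.00373). Anxa5 differed by 1.56 ± 0.46 and missed the threshold (adjusted p = 0.0567), and it was called under 5 of the alternatives (adjusted p from 0.0273 to 0.0492). S100a6 differed by 0.20 ± 0.61 (adjusted p = 0.873), with overlapping arrays. Without a filter on low values S100a4 and Anxa1 were not called (adjusted p = 0.0632 and 0.055).

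Against MPP, 7 of 11 probe sets were called higher and 3 lower in cDC, where 45.1% of all tested were called, 19.8% higher and 25.3% lower. In pDC, 1 was called higher and 5 lower, where 50.7% were called, 24.1% higher and 26.6% lower. S100a6 was higher than in MPP in both, by 3.86 ± 0.61 in cDC (adjusted p = 0.00287, limma) and by 3.66 ± 0.61 in pDC (adjusted p = 0.00291), and these comparisons share the MPP arrays. S100a8 was at least 587-fold lower in each (adjusted p = 1.12e-04 and 7.20e-05). Anxa3 fell by 2.76 ± 0.62 in cDC (6.80-fold, adjusted p = 0.0118) and by at least 135-fold in pDC (adjusted p = 1.20e-04). The cDC call of Anxa3 was lost without either MPP array or cDC replicate 2, with adjusted p from 0.0508 to 0.0635, and without a filter on low values (adjusted p = 0.103). Its fold was 10.6 without cDC replicate 1 and 4.37 without cDC replicate 2. Anxa1 in cDC differed from MPP by 0.65 ± 0.73 (adjusted p = 0.505).

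In vivo CDP were called above cultured CDP for 6 of 11 probe sets and below for none, where 42.8% of all tested probe sets were called, 23.1% higher and 19.7% lower. At an unadjusted p under 0.05 there were likewise 6 higher and 0 lower. S100a10 read 13.35 and 13.93 in vivo against 11.46 and 11.11 in culture, a difference of 2.35 ± 0.29 (5.10-fold, adjusted p = 7.39e-04, limma). Both in vivo arrays lay above every MPP, CDP, cDC and pDC array, and its other 2 probe sets were higher by 2.95 and 1.07 and called. S100a6 read 11.57 and 11.92 in vivo and was higher by 2.42 ± 0.57 (5.35-fold, adjusted p = 0.011), or by 9.61-fold without CDP replicate 1 and 2.98-fold without CDP replicate 2. S100a8 was higher by 3.14 ± 0.87 (8.79-fold, adjusted p = 0.021) and S100a9 by 2.80 ± 0.97 (6.98-fold, adjusted p = 0.0474).

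Anxa2 (0.56 ± 0.25, adjusted p = 0.103, limma), Anxa1, Anxa3, Anxa5 and S100a4 were not called between the 2 kinds of CDP. Anxa3 was nearly level, at 10.21 and 10.23 in vivo against 10.43 and 10.26 in culture (difference -0.13 ± 0.57, adjusted p = 0.886). Without CDP replicate 1, S100a4 (1.59, adjusted p = 0.022) and Anxa5 (1.61, adjusted p = 0.00899) were called higher. Without CDP replicate 2, the difference of S100a8 was 1.82 (adjusted p = 0.103) and that of S100a9 1.25 (adjusted p = 0.242). Without in vivo CDP replicate 1 these were 2.12 (adjusted p = 0.135) and 1.88 (adjusted p = 0.255). S100a9 was also not called without in vivo CDP replicate 2 (3.72, adjusted p = 0.0534), nor was S100a6 (2.25, adjusted p = 0.0689). Without a filter on low values S100a6, S100a8 and S100a9 were not called (adjusted p = 0.0824, 0.136 and 0.237), and a fit of the 4 arrays alone left S100a8 and S100a9 uncalled (adjusted p = 0.0581 and 0.0962). The difference of S100a10 was called under every alternative run, and lay between 2.06 and 2.64 without single arrays. Of the 9 granulocyte markers tested, 6 were called higher and 1 lower in vivo. Mpo was at 13.93 and 13.99 against 8.60 on both cultured arrays (difference 5.35, adjusted p = 2.70e-06). Mmp8 was the lower one (-2.99), and Prtn3 (0.35) and Ctsg (-0.45) were not called. The part of such cells was not tested.

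In CDP given TGF-beta1, Anxa3 was called lower from 8 h on, and S100a4, Anxa5 and 1 of 3 probe sets of S100a10 were called higher at 24 h. At 4 h none of the 12 tested probe sets was called by limma, and none had an unadjusted p under 0.05, where 0.278% of all tested were called, 0.252% higher and 0.0263% lower. At 8 h and at 12 h, 1 of 12 was called, Anxa3, where 0.677% and 2.94% of all tested were called. Of all tested, 0.56% were called higher and 0.117% lower at 8 h, and 2.07% higher and 0.872% lower at 12 h. At 24 h, 3 were called higher and 1 lower, where 14.2% were called, 7.77% higher and 6.39% lower. All times are compared with the same 2 arrays at 0 h. The labels name no untreated culture of 4 to 24 h, so TGF-beta1 and hours in culture cannot be told apart. With the replicate number as a block, 6 of 12 were called at 24 h, where 23.2% of all tested were. The added ones were S100a9 and the strongest probe set of S100a10.

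**Figure D4:**
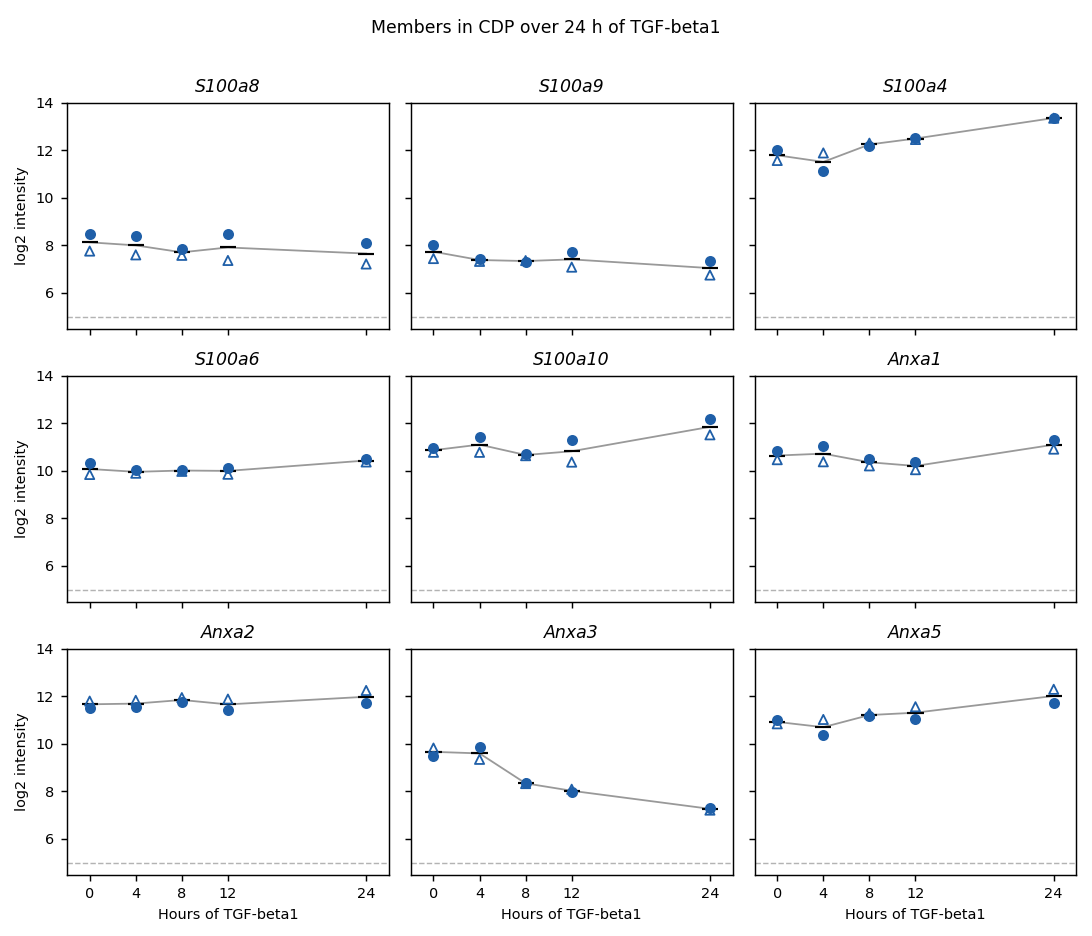
Log2 intensity (y axis) of the 9 measured genes in cultured CDP after 0, 4, 8, 12 and 24 h of TGF-beta1 (x axis), with 1 point per array (filled circle replicate 1, open triangle replicate 2), a bar for the mean of 2 arrays, a line joining the means and a dashed line at 5. Anxa3 falls from 9.66 to 7.26 and S100a4 rises from 11.79 to 13.35, while S100a6, S100a8, S100a9, Anxa1 and Anxa2 stay within 1 of their 0 h means on every array.

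Anxa3 read 9.50 and 9.82 at 0 h and 9.84 and 9.34 at 4 h. It then read 8.35 and 8.32 at 8 h, 7.96 and 8.09 at 12 h, and 7.32 and 7.21 at 24 h. The 0 h and 4 h arrays overlapped, and every later array was below them. The difference from 0 h was -1.32 ± 0.21 at 8 h (2.50-fold, adjusted p = 0.0399, limma). It was -1.64 ± 0.21 at 12 h (adjusted p = 0.00759) and -2.40 ± 0.21 at 24 h (5.27-fold, adjusted p = 4.91e-04). Over all times the moderated F-test gave an adjusted p of 0.00258. The 24 h call was kept without any 1 of the 4 arrays compared, at -2.24 to -2.56. The 8 h and 12 h calls were lost without any 1 of theirs, with adjusted p from 0.175 to 0.384 and from 0.0521 to 0.0949.

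S100a4 read 12.00 and 11.57 at 0 h, 11.13 and 11.88 at 4 h, and 12.18 and 12.29 at 8 h. It read 12.53 and 12.45 at 12 h and 13.36 and 13.34 at 24 h. The 24 h arrays lay above all others, with a rise of 1.57 ± 0.26 from 0 h (2.96-fold, adjusted p = 0.00731, limma), while 12 h was 0.70 ± 0.26 higher without being called (adjusted p = 0.242). The F-test over all times gave an adjusted p of 0.0268. Without 0 h replicate 2 the 24 h rise was not called (1.35, adjusted p = 0.0721). Anxa5 had a mean of 10.92 ± 0.11 (SD, n = 2) at 0 h and read 11.73 and 12.29 at 24 h, a rise of 1.09 ± 0.29 (2.13-fold, adjusted p = 0.0432). That call was lost without any 1 of the 4 arrays, with adjusted p from 0.058 to 0.218, and with array centring (adjusted p = 0.0515) or no filter (adjusted p = 0.0508). Markers of other cell types moved at 24 h as well. Of 9 cDC markers, 8 were tested and 7 called higher, and their mean log2 level went from 7.44 and 7.27 at 0 h to 9.38 and 9.75 at 24 h. Of 8 monocyte and macrophage markers tested, Csf1r was called higher (0.91) and Lyz2 (-3.32) and Fcgr1 (-1.68) lower, and their mean level went from 10.02 and 9.85 to 8.81 and 9.08. Their part in the differences of S100a4, Anxa5 and Anxa3 was not tested.

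The 3 probe sets of S100a10 gave different answers at 24 h. Set 1439348_at, the weakest, read 5.62 and 5.09 at 0 h and 6.78 and 6.87 at 24 h, a rise of 1.47 ± 0.30 (2.76-fold, adjusted p = 0.0165, limma) that was not called without any 1 of these 4 arrays (adjusted p from 0.0501 to 0.130). The strongest, 1456642_x_at, whose suffix marks probes that may match other transcripts too, read 10.95 and 10.78 at 0 h and 12.18 and 11.51 at 24 h. Its rise of 0.98 ± 0.36 was not called (adjusted p = 0.12), but was called with the replicate block (adjusted p = 0.0187). Set 1416762_at differed by 0.42 ± 0.48 (adjusted p = 0.643), with 10.92 and 11.92 at 24 h around 11.02 and 10.99 at 0 h. On the 3 arrays with low 5′ signal, replicate 1 read below replicate 2 by 1.41, 0.50 and 1.00 for 1416762_at at 4, 12 and 24 h, and above it by 0.65, 0.91 and 0.67 for 1456642_x_at. The part of the low 5′ signal was not tested for single genes. Without those 3 arrays 7 of 12 probe sets were called at 24 h, where 21.6% of all tested were. All 3 sets of S100a10 then rose, by 0.92 (1416762_at), 1.51 (1439348_at) and 0.65 (1456642_x_at). S100a9 fell by 0.98, and these sizes rest on 1 array at 24 h.

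In the fit of all 10 arrays without the block, the other genes were not called at any time. S100a9 read 8.02 and 7.44 at 0 h and 7.33 and 6.75 at 24 h, a difference of -0.69 ± 0.30 (adjusted p = 0.182, limma) that was called with the replicate block, just under the threshold (adjusted p = 0.04997). S100a8 differed by -0.47 ± 0.47 at 24 h (adjusted p = 0.586), S100a6 by 0.36 ± 0.20 (adjusted p = 0.301) and Anxa2 by 0.32 ± 0.25 (adjusted p = 0.473). Anxa1 differed by -0.44 ± 0.28 at 12 h (adjusted p = 0.545) and by 0.46 ± 0.28 at 24 h (adjusted p = 0.345). Over all times, 2 of 12 probe sets passed the F-test, where 5.74% of all tested did. With the replicate block 6 passed, where 13% of all tested did, among them Anxa1 (adjusted p = 0.036) and Anxa5 (adjusted p = 0.0337). Of the 9 granulocyte markers tested, Ctsg (-4.38, adjusted p = 1.72e-04) and Mmp8 (at least 3.18-fold, adjusted p = 0.0254) were called lower at 24 h, and the mean level of the 10 measured went from 7.08 and 7.0 at 0 h to 5.89 and 5.99.

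Over the TGF-beta1 arrays the genes nearest in pattern to S100a4 were Wdfy4 (root mean square difference 0.17), Ppm1m (0.18) and Cerk (0.18), among 5781 genes. Ddx58 (0.17), L1cam (0.18) and Trim30a (0.19) were nearest to S100a10, and Cmpk2 (0.13), Ifi209 (0.15) and Zfp619 (0.16) to Anxa1. Rdh13 (0.15), Nus1 (0.16) and Dhdh (0.16) were nearest to S100a9, whose range over these arrays was 1.27.

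The wider families were counted beside them. Of 11 other S100 genes listed, S100pbp, which encodes a binding protein of an S100 protein, included, 9 were measured and 3 tested on the one-cycle arrays. S100a1, which acts on calcium handling in muscle, was lower in CDP than in MPP (-1.95 ± 0.38, adjusted p = 0.0359, limma) and at least 1.31-fold lower in pDC, where both arrays were under 5, than in CDP (adjusted p = 0.00252). In vivo CDP were above cultured CDP for S100a1 (1.71 ± 0.35, adjusted p = 0.00617) and S100a13 (1.86 ± 0.27, adjusted p = 0.00149). Of the 6 tested on the TGF-beta1 arrays, S100a5 (at least 1.31-fold, adjusted p = 0.004) and S100pbp (0.97, adjusted p = 0.0102) rose at 24 h. S100a5 lies next to S100a4, which rose too, and to S100a6, which was not called.

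Of 8 other annexins, 7 were measured and 4 tested. Anxa6 and Anxa4 were called higher in cDC than in CDP (3.68 ± 0.57, adjusted p = 0.0035, limma, and 2.54 ± 0.31, adjusted p = 0.00167). Anxa9 was called lower (adjusted p = 0.0116) with both means under 5. In pDC, Anxa6 (2.92), Anxa7 (1.23) and Anxa4 (1.08) were called above CDP, whereas Anxa1, Anxa2 and Anxa3 had been called below it. Anxa6 was also higher in vivo than in culture (3.43 ± 0.52, adjusted p = 0.00173). At 24 h of TGF-beta1, Anxa4 rose (1.82 ± 0.19, adjusted p = 0.00108) and Anxa9 fell by 1.36 (adjusted p = 0.0116).

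Of 12 partners and receptors, 11 were measured and 7 tested on the one-cycle arrays. Ahnak, a giant scaffold protein that binds the annexin A2 and S100a10 complex, was the 1 called between MPP and CDP. It went from 5.70 ± 0.22 (SD, n = 2) in MPP to 9.66 ± 0.48 in CDP, 12.14 ± 0.19 in cDC and 12.33 ± 0.37 in pDC. The step from MPP was 3.96 ± 0.30 (adjusted p = 0.00111, limma), and those from CDP were 2.48 (adjusted p = 0.00165) and 2.67 (adjusted p = 7.86e-04). Ahnak was also higher in vivo than in culture (2.05, adjusted p = 0.00148) and at 24 h than at 0 h of TGF-beta1 (1.92, adjusted p = 0.00285). Cd36, a scavenger receptor, was above CDP by at least 6.11-fold in cDC (adjusted p = 0.00105) and at least 1.83-fold in pDC (adjusted p = 0.00291). Fpr2, a receptor of annexin A1, was above CDP in cDC (3.27, adjusted p = 0.0278) and above pDC by at least 6.30-fold (adjusted p = 0.019).

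Of the receptors described for S100a8 and S100a9, Emb was lower in pDC than in CDP (-4.68, adjusted p = 8.81e-05, limma) and lower in cDC (-1.71, adjusted p = 0.00475). Tlr4 was at least 3.004-fold lower in pDC than in CDP (adjusted p = 2.04e-04) and at least 3.004-fold lower in vivo than in culture (adjusted p = 6.63e-05), with means of 3.22 in pDC and 2.99 in vivo. Emb was lower in vivo as well (-1.28, adjusted p = 0.0066). At 24 h of TGF-beta1, 2 of 8 tested were called higher, Ahnak and Ager, the receptor for advanced glycation end products (1.25, adjusted p = 0.0102). Emb (-1.69, adjusted p = 0.0102) and Plaur, the urokinase receptor (-1.49, adjusted p = 0.00208), were called lower. Both were also called lower at 12 h, with differences of -1.58 (adjusted p = 0.0388) and -1.11 (adjusted p = 0.0221).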

How the data were processed

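The deposited table holds log2 probe set intensities that the authors background-adjusted and normalized; GCRMA is named per the submitters' processing notes, its version not given in the sources used here. Besides 64 control probe sets it lists 45037. Genes were named from a platform table of 2016, in which 34945 had 1 symbol, 932 several and 9160 none. All rows but the controls entered the fits without further scaling. The members and the gene lists were chosen with earlier results of these data known.

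Differences were fitted per probe set with limma 3.58.1 in R 4.3.3 (lmFit, eBayes), two-sided, with Benjamini-Hochberg adjustment over all probe sets with a value above 5 on 2 or more of its arrays. The fits took the 8 one-cycle arrays (17501 probe sets), these with in vivo CDP (18027) and the 10 TGF-beta1 arrays (26606). Of the 14 member probe sets, 11 passed the filter in the fits without and with in vivo CDP and 12 in the TGF-beta1 fit; another set each of Anxa1 and Anxa2 never passed, and 1437692_x_at of Anxa2 passed only in the TGF-beta1 fit, where it was not called. All stay under 3 on the 10 arrays that share a lowest value. The number of arrays limits the precision. The scripts were tested on simulated data. Named genes of the other lists are called ones, mostly those with the 3 largest differences per comparison, but a further partner or receptor is named in some. The nearest genes are those with a range of at least 1. For every pair of TGF-beta1 times, deviations of same-numbered arrays correlated by over 0.1 (0.147 to 0.833). The numbers were therefore used as pairs in the replicate block, from the data and not the labels. The main TGF-beta1 fits ignore this pairing, and results of the block are named as such. The highest correlations are those among 4, 12 and 24 h, where replicate 1 had low 5′ signal. Alternatives were array centring, quantile normalization, other filters, 1 probe set per gene, raising values to 5, eBayes with trend, the replicate block, other array sets and leaving out arrays.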

Additional observations from a re-analysis of the deposited data

How the results depend on the processing

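Across 11 comparisons and the F-test, counts of called member probe sets stayed within 1.5 times of the values in the report under array centring, quantile normalization, a filter at 7, 1 probe set per gene and values raised to 5. Without a filter on low values 14 member probe sets were tested. Of them 0 were called for CDP against MPP (0.988% of all tested), 4 for cDC against CDP (9.29%) and 4 for pDC against CDP (13.5%). For cDC against pDC 4 were called (5.24%), and for in vivo CDP against CDP 2 (12.9%). With the filter, these shares of all tested were 4.92%, 40.2%, 48.2%, 20.8% and 42.8%. The cause was not tested. With eBayes trend the 8 h count was 0, as the adjusted p of Anxa3 was 0.0539. A fit over the 4 CDP and in vivo CDP arrays alone gave 3. Without the 3 arrays with low 5′ signal, the 24 h count was 7. With the replicate block the F-test count was 6. For the one-cycle arrays same-numbered deviations correlated by 0.02 to 0.59. The highest were MPP with CDP (0.59) and cDC with pDC (0.48), above the 0.15 of 0 h with 24 h of TGF-beta1. As the lowest, CDP with pDC, was under 0.1, the numbers were not taken to pair the one-cycle arrays. The main fits of those arrays ignore any such pairing. The block there gave 8 instead of 7 calls for pDC against CDP, with S100a4 at adjusted p = 0.0277, and 8 instead of 7 for cDC against pDC, with Anxa5 at 0.0273.

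Leaving out single arrays gave 0 to 2 calls for CDP against MPP, 7 to 9 for cDC against CDP, 6 to 8 for pDC against CDP, 6 to 7 for cDC against pDC and 3 to 8 for in vivo CDP against CDP. It gave 0 to 0 at 8 h and at 12 h, 1 to 2 at 24 h and 1 to 4 for the F-test. Where 1 array of a group was left, it was taken to vary like the other groups. Of 1287 member differences recomputed, 42 turned sign, of which 0 were called in either fit. The count over all probe sets ranged, over all alternatives, from 205 to 1119 for CDP against MPP, from 4184 to 7827 for cDC against CDP, from 4739 to 9291 for pDC against CDP, from 1746 to 4231 for cDC against pDC and from 4298 to 8152 for in vivo CDP against CDP. Against MPP it ranged from 4819 to 8583 for cDC and from 5037 to 9629 for pDC. For TGF-beta1 it ranged from 3 to 1537 at 4 h (74 in the report's fit), from 20 to 764 at 8 h (180), from 121 to 1948 at 12 h (783), from 1063 to 6164 at 24 h (3766) and from 314 to 3756 for the F-test (1526). At 4 h the lowest count came without 0 h replicate 2 and the highest without 4 h replicate 2.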
